A study of Aegilops tauschii x Triticum turgidum and Aegilops tauschii and Triticum turgidum subsp. durum with 18 samples.

Results

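Among the parents of a set of synthetic wheats, 108 of 61179 probe sets gave a signal in the goat grass Aegilops tauschii accession 36 and next to none in Ae. tauschii accession 54 or in the tetraploid wheat Joyau. A probe set is a group of array probes meant for 1 transcript or, for some, for several related ones. Members were chosen on deposited log2 values, as the mean of the 2 arrays of each group: 6.5 or more in accession 36, and 4 or less in both accession 54 and Joyau. Control probe sets were left out. The signals of these 3 parents therefore fixed the membership, and they are given below as a description with no test. The 108 members were then followed in RNA mixes, in the synthetic hexaploids of both crosses and in a natural bread wheat, none of which entered the rule.

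Bread wheat is a hexaploid. It holds the A and B genomes of a tetraploid wheat and the D genome of the diploid grass Ae. tauschii, and crossing these progenitors again gives synthetic hexaploids. The bread wheat D genome derives from a lineage of Ae. tauschii close to subspecies strangulata, so a transcript carried by one accession of the grass may or may not have a counterpart in a cultivar. A low value on an array can mean an absent transcript or one whose sequence pairs poorly with the probes, and these data cannot tell the cases apart.

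The diploid parents were accession 36 of Ae. tauschii ssp. strangulata (Ae36) and accession 54 of ssp. tauschii (Ae54), and the tetraploid parent was Triticum turgidum cv Joyau. S0_36 and S0_54 were synthetic hexaploids of selfed generation 0 from Joyau with accession 36 or 54, S1_54 was selfed generation 1 from accession 54, and Courtot was a natural hexaploid cultivar of T. aestivum. The mixes mix36 and mix54 held equal amounts of Joyau RNA and of Ae36 or Ae54 RNA. Every group had 2 arrays of RNA from whole plants, all grown for 40 days at 24 °C, 98% hygrometry, 10000 lux and a 16 h photoperiod. No selfed generation from accession 36 was among the groups, so the accession 36 transcripts were followed over generations only in the cross that lacks that accession. The tetraploid brings more genomes to a hexaploid than the diploid does, so an equal RNA mix is not by construction its additive level.

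Over the 18189 tested probe sets, the SD of the difference between replicate arrays was 0.131 for mix36 and 0.117 for mix54, and 0.46 to 0.671 for the other groups. Each mix was therefore counted as 1 sample in the tests. The labels of Ae54 replicate 1 conflict: its organism and extract fields name the hybrid or the mix, while its description gives accession 54. On that array 9 members read above 4, the highest at 4.56, and on Ae54 replicate 2 there were 2, the highest at 4.07. Since the rule used both arrays and the accession 54 mix and hybrids are low for most members too, these member values do not settle the label. Outside the members, Ta.303.2.S1_at, with means of 9.85 in Joyau and 9.25 in mix54, read 2.86 on Ae54 replicate 1 and 2.87 on replicate 2. Ta.5411.2.A1_at, at 7.12 and 6.25, read 3.15 and 3.21. Ta.303.2.S1_x_at, at 9.19 and 8.63, read 7.05 and 4.49. What the array holds was not tested. Choosing the members without Ae54 replicate 1 gave 116 probe sets, of which 106 were among the 108. RNA input was 20 µg for both Ae36 arrays and Ae54 replicate 2, and 40 µg for the others, and its part in the results was not tested. Of 11 markers of green tissue looked for by symbol, 3 were found in the probe table, which gives symbols for 1273 probe sets. The others may be on the array without a symbol. Over all 18 arrays petC, the Rieske protein of photosynthetic electron transport, read 12.96 to 14.18 on 1 of its probe sets, FBP, a bisphosphatase of sugar synthesis, 9.30 to 10.86, and the catalase CAT1 9.91 to 12.92. A second probe set of each stayed between 1.76 and 4.70.

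In Ae36 the members ranged from 6.51 to 13.93, with a median of 7.63, against medians of 3.04 in Ae54 and 2.87 in Joyau. The highest was Ta.26910.1.S1_at, at 14.11 and 13.74 on the Ae36 arrays, at 2.20 on both Ae54 arrays and at 2.16 and 2.19 in Joyau. Next came Ta.28115.1.S1_at, at 11.78 and 11.10 in Ae36, and LOC606323 (Ta.2690.1.S1_at), at 11.45 and 10.60. Both stood at 3.60 or less in the other parents.

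**Figure D1:**
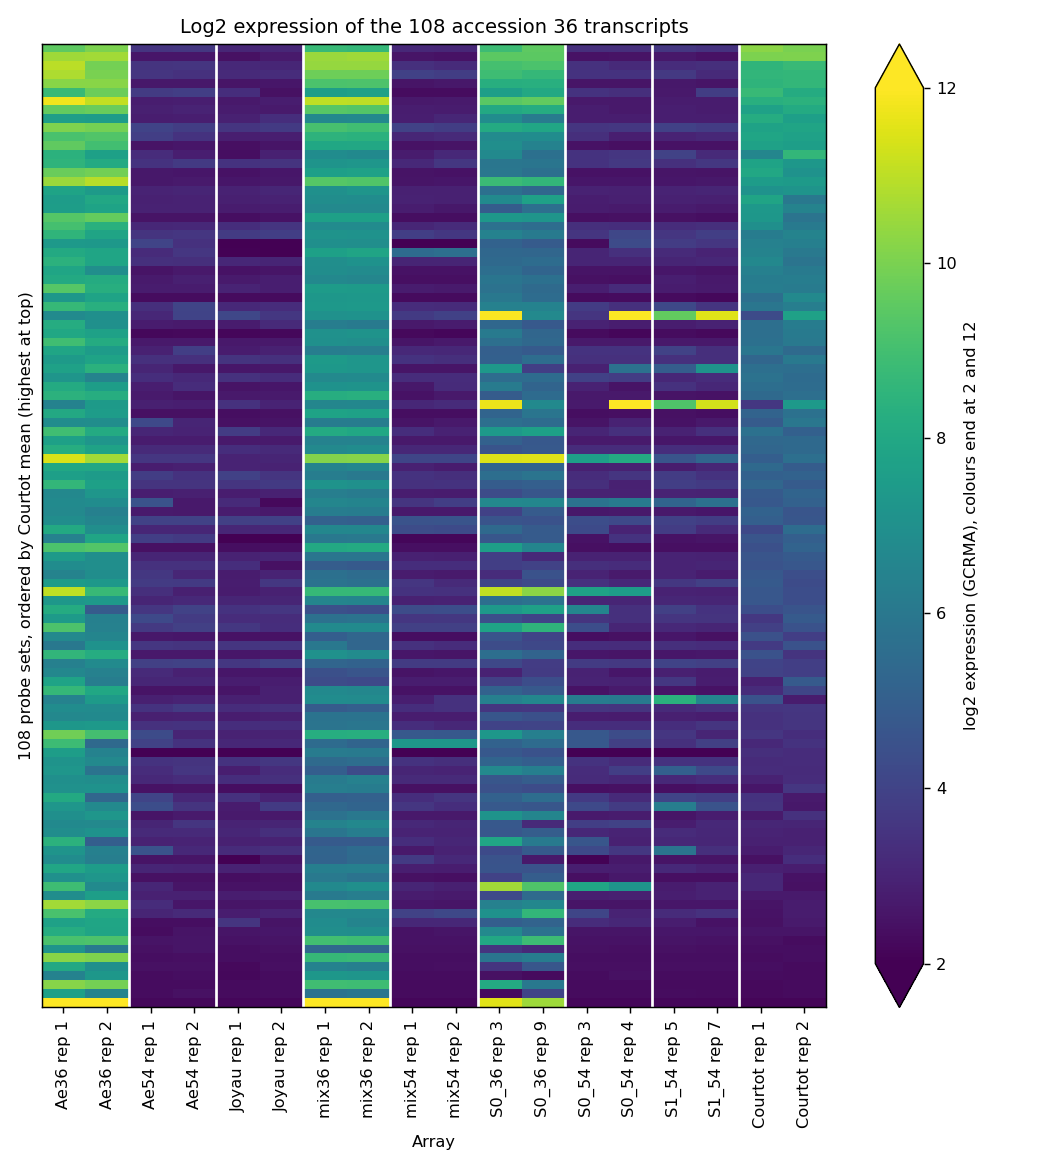
Log2 expression of the 108 members (rows, ordered by their Courtot mean) on each of the 18 arrays (columns, in pairs by group). Colour runs from 2 (dark) to 12 (yellow), and values beyond these ends take the end colour. The Ae36 columns are the brightest, mix36 has 66 members at 6.5 or more and none at 4 or less, the Ae54, Joyau and mix54 columns are dark with few exceptions, and Courtot is bright in the upper part only, with 21 members at 6.5 or more and 39 at 4 or less.

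The edges of the rule were close. Just inside the Ae36 threshold were LOC542887 (Ta.25053.1.S1_at) at 6.51 and TaAffx.110922.1.S1_at at 6.52, and just outside it were Ta.4556.1.A1_at and Ta.14011.2.A1_at, both at 6.46. For Ae54, Ta.21109.1.A1_at and Ta.9180.1.S1_a_at lay inside at 3.98, with Ta.11087.1.S1_at at 4.01 and TaAffx.1241.1.A1_at at 4.03 outside. For Joyau, Ta.9180.1.S1_a_at at 3.90 and Ta.21348.1.S1_x_at at 3.86 were inside, with Ta.23763.1.S1_at at 4.43 and Ta.11821.1.S1_a_at at 4.91 outside. With every array required past its threshold, 77 members stayed.

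The 2 Ae36 arrays differed by over 1 for 23 members, and in 19 of these replicate 1 was the higher. The largest gaps were in TaAffx.35563.1.A1_at, at 8.44 and 4.97, and TaAffx.104648.1.S1_at, at 8.85 and 5.40. LOC542887 read 8.15 and 4.87. Such members met the rule through replicate 1, and without that array 100 probe sets met it, 92 of them among the 108. Without replicate 2 there were 139, including 101 of the 108.

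By name the members fell into 101 stems (the part of a probe set name that marks its sequence cluster), with 7 stems holding 2 members each. Names that end in _at alone, given to probe sets meant for a single transcript, made up 84 of 108 (77.8%), against 60.9% of all tested probe sets. Names ending in _x_at, given to probes that may also pair with other sequences, made up 9 (8.33%, against 17.9%). Of the 108, 9 have a gene symbol in the probe table, for 8 genes, all of them LOC identifiers with no role assigned here.

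The mixes asked whether the signal follows the accession 36 RNA. In mix36 66 members (61.1%) stayed at 6.5 or more, 42 lay between the thresholds and none was at 4 or less. The median was 6.73. Relative to Ae36 the median difference was -1.11 on the log2 scale, and relative to the level computed from equal parts of the Ae36 and Joyau values it was -0.15, with a range of -1.82 to 1.34. The rule used these Ae36 and Joyau values, which by itself favours negative differences. In mix54 100 members (92.6%) were at 4 or less, with a median of 2.92. Ranks in mix36 followed those in Ae36 across the 108 members (Spearman's rho 0.874), which share the array type and possibly the RNA. The median difference of mix36 from Ae36 replicate 1 was -1.27 (SD 0.833) and from replicate 2 it was -0.88 (SD 0.593). Over the 23 members whose Ae36 arrays differ by over 1 these medians were -1.87 (SD 1.19) and -0.60 (SD 0.647), so mix36 lay closer to replicate 2. The labels do not say which extracts went into the mixes.

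Of the mix54 arrays, 1 member stood out. TaAffx.104648.1.S1_at read 7.28 on both, although Ae54 gave 3.98 and 3.46 and Joyau 3.13 and 3.16, so that the mix lay above both of its components. It is a member only through Ae36 replicate 1, and without that array no member reached 6.5 in mix54. LOC543261 (Ta.214.2.A1_at) did likewise, at 5.48 and 5.66 in mix54 against 3.22 and 3.57 in Ae54 and 2.04 and 2.01 in Joyau.

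**Figure D2:**
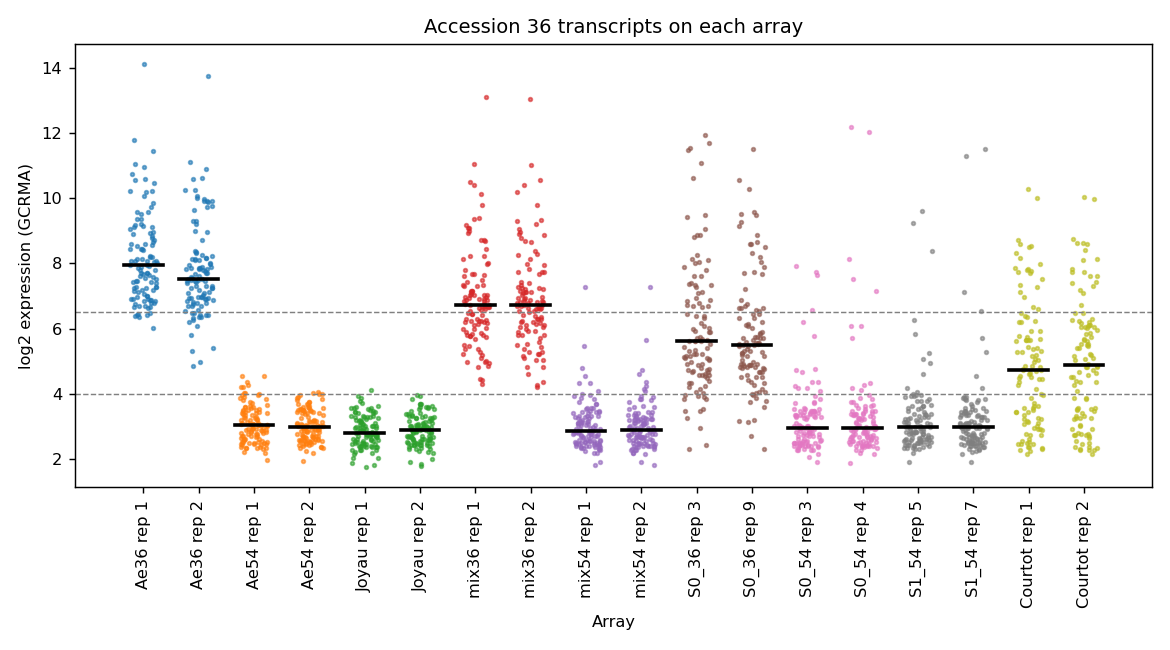
Log2 expression of the 108 members on each of the 18 arrays, 1 point per member, with the median of each array as a black bar and the thresholds of 6.5 and 4 as dashed lines. The medians stand at 7.94 and 7.52 in Ae36, 6.73 on both mix36 arrays, 5.63 and 5.49 in S0_36 and 4.73 and 4.88 in Courtot, and between 2.81 and 3.04 on all arrays of Ae54, Joyau, mix54, S0_54 and S1_54.

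The synthetic hexaploids asked whether the accession 36 transcripts reach the plant that inherits them. In S0_36 34 of 108 members (31.5%) were at 6.5 or more, 63 lay between the thresholds and 11 (10.2%) were at 4 or less. In S0_54, which has accession 54 in place of 36, 5 (4.63%) were at 6.5 or more and 96 (88.9%) at 4 or less. The median level was 5.53 in S0_36 and 3.03 in S0_54. With members chosen without Ae36 replicate 2, the share at 4 or less in S0_36 was 15.8% and that at 6.5 or more in S0_54 was 2.88%, of 139. In whole plants, fewer cells of a type and less RNA per cell cannot be told apart.

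Between S0_36 and S0_54, 79 members were higher in S0_36 and none lower at an adjusted p under 0.05 in limma, against 5.56% of all tested probe sets called higher and 1.91% called lower. The remaining 29 did not pass. The difference was above 0 for 107 of the 108, with a median of 2.33 on the log2 scale, and over all tested probe sets the median was -0.125. At an unadjusted p under 0.05 the lower count was also 0, as was the adjusted count in all alternatives, over which the higher calls ranged from 72 to 86. GCRMA, the authors' processing, holds dim probe sets near a floor, and 96 of the members were at 4 or less in S0_54. The members were also chosen to be low in Ae54 and Joyau, the parents of S0_54. Few had room to be lower in S0_36, so the lower count of 0 largely follows from the choice.

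Ta.26910.1.S1_at read 11.54 and 10.55 in S0_36, 2.17 and 2.16 in S0_54, 2.19 and 2.16 in S1_54, and 2.15 on both Courtot arrays. The S0_36 arrays lay below those of Ae36 and mix36 and above those of all other groups, with a difference from S0_54 of 8.88 ± 0.28 (SE, limma adjusted p = 4.59e-08). Ta.303.1.S1_at read 9.48 and 9.49 in S0_36, 2.48 and 2.53 in S0_54, and 10.02 and 10.05 in Courtot. It was higher in S0_36 than in S0_54 by 6.98 ± 0.17 (SE, limma adjusted p = 1.39e-08), and its S0_36 arrays lay below those of Ae36, mix36 and Courtot and above all others. Ta.28115.1.S1_at read 9.43 and 9.59 in S0_36, 2.70 and 2.67 in S0_54 and 8.32 and 8.42 in Courtot, a difference of 6.83 ± 0.22 between the synthetics.

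At the other end, 11 members were at 4 or less in S0_36, and none of these 11 was called different from S0_54. The lowest was Ta.18111.1.S1_at, at 6.43 and 7.30 in Ae36 and 7.30 and 7.23 in mix36, but 2.44 and 2.31 in S0_36 and 2.33 and 2.44 in S0_54. Its S0_36 arrays lay within the range of those of S0_54, S1_54 and Courtot. Ta.16827.1.S1_s_at (2.30 and 4.00 in S0_36), TaAffx.19692.1.A1_at (3.49 and 3.15), TaAffx.110922.1.S1_at (2.95 and 3.74), TaAffx.111323.1.S1_at (3.84 and 3.17) and Ta.15907.1.A1_at (3.55 and 3.60) followed. All 5 read 6.09 or more on both Ae36 arrays.

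Set against the equal mix of its parents' RNA, S0_36 carried most of these transcripts at a lower level. The median difference was -1.31 on the log2 scale over the members and -0.136 over all tested probe sets, and 92 of 108 lay below the mix. In limma 58 members were lower in S0_36 and 2 higher, against 6.7% and 6.28% of all tested probe sets, and 48 did not pass. The level computed from 2 parts Joyau and 1 part Ae36, which weighs the tetraploid genome more, lay closer, with a median difference of -0.85 and 84 members below it. That level comes from the Ae36 and Joyau values that the rule used, which by itself favours lower values in S0_36. Mix36 enters the limma test as 1 sample, which is taken to vary as the plants do, and if it shares RNA with the Ae36 arrays it is not independent of the rule.

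Ta.18111.1.S1_at had the largest fall from mix36, by 4.89 on the log2 scale (SE 0.31, limma adjusted p = 8.88e-06). Its mix36 mean of 7.26 was itself above its Ae36 mean of 6.87 and the 5.93 computed from equal parts. Ta.5350.1.S1_at read 8.22 and 8.29 in mix36 and 4.92 and 5.49 in S0_36, a fall by 3.05 (SE 0.26, limma adjusted p = 7.21e-05). The _x_at probe set of stem Ta.11519 read 8.70 and 8.79 in mix36 and 5.90 and 6.19 in S0_36. It fell by 2.70 (SE 0.21, limma adjusted p = 3.73e-05), and its partner Ta.11519.1.A1_at went from 9.08 and 9.05 to 6.40 and 6.64. In all of these the S0_36 arrays lay below both mix36 arrays. Ta.16827.1.S1_s_at fell by 2.71 (SE 0.59, limma adjusted p = 0.0138), a call lost with no filter on dim probe sets (0.0716).

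The 2 members above the mix rest on less. LOC542888 (Ta.13255.1.S1_at) read 10.62 and 9.26 in S0_36 against 6.75 and 6.97 in mix36, a rise of 3.08 ± 0.76 (SE, limma adjusted p = 0.0247). Both arrays also exceeded the Ae36 arrays, at 8.91 and 6.79. The adjusted p was 0.121 without S0_36 replicate 3 and 0.119 with no filter on dim probe sets, and over all alternatives it ran from 0.00158 to 0.121. Ta.8571.2.S1_a_at read 6.70 and 6.33 in S0_36 against 4.97 and 4.28 in mix36, a rise of 1.89 ± 0.54 (SE, limma adjusted p = 0.0454). Its adjusted p ran from 0.0053 to 0.171, and it was 0.162 without S0_36 replicate 3, 0.0884 without replicate 9 and 0.0909 without mix36 replicate 2.

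**Figure D3:**
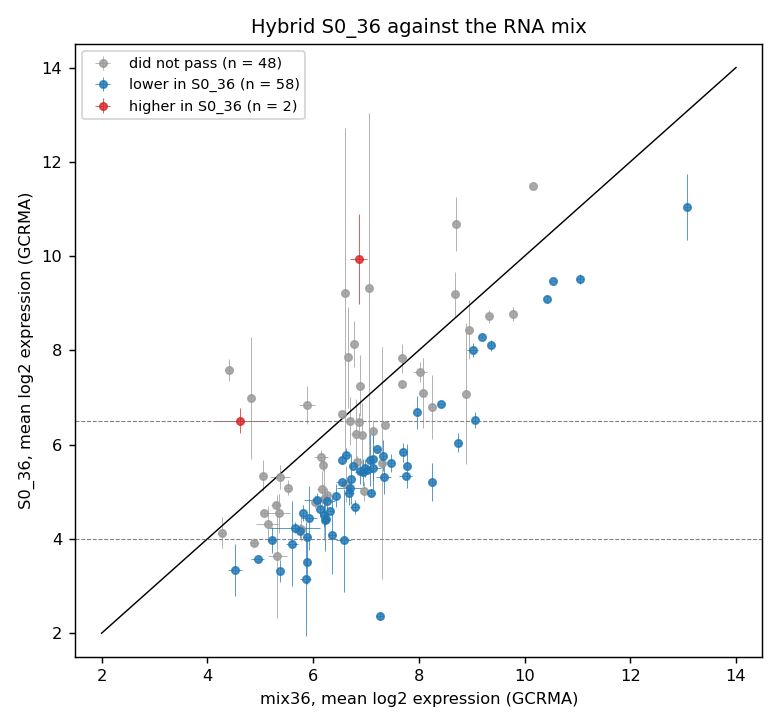
Mean log2 expression of the 108 members in S0_36 (vertical) against mix36 (horizontal). Bars give the SD of the 2 arrays, the line marks equal levels and dashed lines the thresholds of 4 and 6.5. The 58 members called lower in S0_36 (blue) lie below the line over the whole range, the 2 called higher (red) lie above it, and grey points did not pass.

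Across the 108 members, ranks in S0_36 followed those in Ae36 less closely than ranks in mix36 did (rho 0.66 and 0.874, no test). The rule selected on high Ae36 values, which by itself favours lower values in any other group. Mix36 may also share RNA with the Ae36 arrays. Only 8 members had a higher mean in S0_36 than in Ae36, a count that bears this limit. LOC606323 was among the few held at the parental level. It read 11.48 and 11.50 in S0_36, against 11.45 and 10.60 in Ae36 and 10.14 and 10.18 in mix36, the difference from the mix being 1.33 ± 0.42 (SE, limma adjusted p = 0.0614). TaAffx.128555.1.S1_at read 11.09 and 10.27 in S0_36, 11.04 and 8.72 in Ae36 and 8.71 and 8.69 in mix36, and LOC543196 (Ta.105.1.S1_at) read 7.10 and 8.61, 9.13 and 8.13, and 6.66 and 6.65. For these 3 the difference from the mix did not pass.

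Courtot, whose D genome came from Ae. tauschii long before these crosses, divided the members. In it 21 (19.4%) were at 6.5 or more, 48 lay between the thresholds and 39 (36.1%) were at 4 or less, with a median of 4.85. The 21 high ones had a median of 9.49 in Ae36 and 7.29 in S0_36, and the 39 low ones 7.08 and 4.83. By median, then, the members low in Courtot were also the lower ones in accession 36. Ranks in Courtot followed those in Ae36 and in S0_36 loosely (rho 0.43 and 0.411 across members, no test).

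The 6 highest in Courtot were Ta.8097.1.A1_at, Ta.303.1.S1_at, Ta.19491.1.S1_at, Ta.30549.1.A1_at, Ta.7102.1.S1_at and Ta.29583.1.S1_at. Ta.8097.1.A1_at read 10.28 and 9.99 in Courtot, 8.87 and 9.53 in S0_36 and 9.51 and 10.02 in Ae36. Ta.7102.1.S1_at read 8.51 and 8.61 in Courtot, 8.27 and 8.31 in S0_36 and 10.23 and 10.24 in Ae36. Ta.30549.1.A1_at read 8.59 and 8.64 in Courtot and 8.88 and 8.67 in S0_36. All 6 stood between 2.48 and 3.80 on every array of S0_54 and S1_54 and at 7.61 or more on every array of S0_36 and Courtot.

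Compared with S0_54, 60 members were higher in Courtot and 4 lower, against 5.29% and 4.89% of all tested probe sets. This comparison and that of S0_36 with S0_54 share the S0_54 arrays. The median difference was 1.46 on the log2 scale. All 21 members at 6.5 or more in Courtot were among the 60. The 4 lower are 3.7% of the members, below that background. Members were chosen to be low in both parents of S0_54, and 96 were at 4 or less in S0_54 itself. Few had room to be lower in Courtot, so the direction of these calls largely follows from the choice.

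The direct comparison of Courtot with S0_36 gave 12 members higher and 38 lower in Courtot, against 10.4% and 11.0% of all tested probe sets, with 58 that did not pass. The 12 are 11.1% of the members, close to that background, and the 38 are 35.2%. The median difference was -0.22 on the log2 scale. Of the 38, 28 were among the 39 members at 4 or less in Courtot. The higher count fell to 7 without S0_36 replicate 3 and to 7 without Courtot replicate 1.

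The largest fall was that of Ta.26910.1.S1_at, with a log2 difference of -8.90 ± 0.28 from S0_36 (SE, limma adjusted p = 1.29e-08), so the strongest accession 36 transcript was at the floor in the bread wheat. LOC542888 read 3.10 and 2.46 in Courtot, a difference of -7.15 ± 0.62 from S0_36 (SE, limma adjusted p = 1.91e-05). LOC606323 read 4.98 and 5.67 in Courtot, a difference of -6.17 ± 0.34 (SE, limma adjusted p = 5.62e-07), and TaAffx.128555.1.S1_at read 4.71 and 4.37, a difference of -6.14 ± 0.58 (SE, limma adjusted p = 3.47e-05). In each of the 4 both S0_36 arrays lay above both Courtot arrays. In all, 10 members were at 6.5 or more in S0_36 and at 4 or less in Courtot, and none the other way round. Stem Ta.11519 was similar at a lower level: its 2 probe sets read 5.90 to 6.64 in S0_36 and 2.35 to 2.76 in Courtot.

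Members higher in Courtot moved less. Ta.11969.1.A1_a_at read 7.98 and 7.08 in Courtot and 5.98 and 5.70 in S0_36, a difference of 1.69 ± 0.26 (SE, limma adjusted p = 0.0013). The Ta.6283 probe sets Ta.6283.1.S1_x_at and Ta.6283.1.S1_at were higher by 1.65 ± 0.23 and 1.64 ± 0.30, and TaAffx.27751.1.S1_at by 1.64 ± 0.19. All 4 were also called lower in S0_36 than in mix36, with log2 differences of -1.85, -1.31, -1.43 and -1.63 in the same order. For Ta.6283.1.S1_at that call ended without S0_36 replicate 3 (0.134) and with no filter (0.0867). The comparisons with Courtot and with mix36 share the S0_36 arrays, so low values there favour both calls. Ta.11969.1.A1_a_at read 7.66 and 7.74 in mix36, within the range of its Courtot arrays. Ta.303.1.S1_at was higher in Courtot by 0.55 ± 0.17 (SE, limma adjusted p = 0.0437), and Ta.8097.1.A1_at by 0.93 ± 0.25 (SE, limma adjusted p = 0.0246). Leaving out arrays ended both calls, with an adjusted p of up to 0.167 for the first and 0.205 for the second without S0_36 replicate 3.

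**Figure D4:**
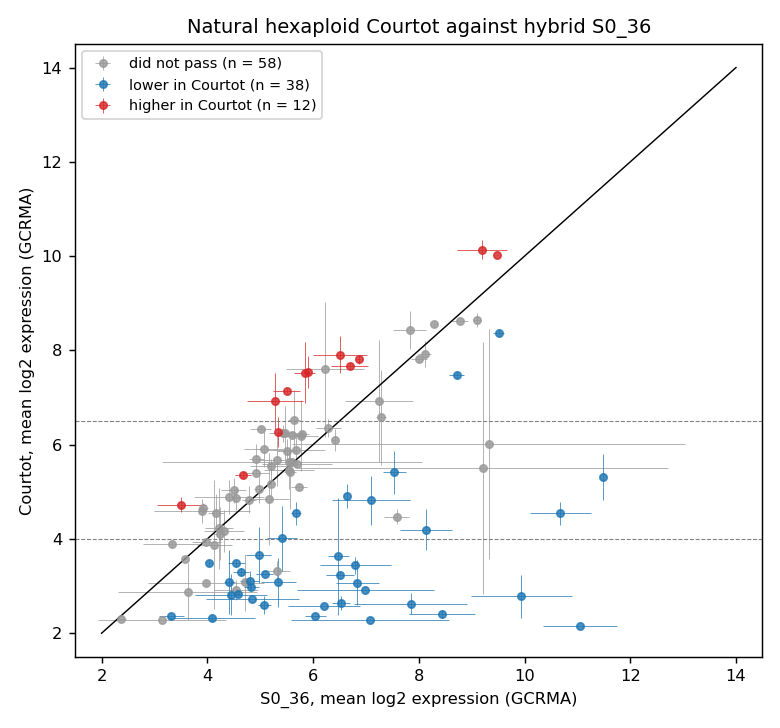
Mean log2 expression of the 108 members in Courtot (vertical) against S0_36 (horizontal), with bars for the SD of the 2 arrays, a line at equal levels and the thresholds of 4 and 6.5 dashed. The 38 members called lower in Courtot (blue) reach down to the floor at 2.15, whereas the 12 called higher (red) stay close above the line and grey points did not pass.

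A small number of the members appeared in the cross without accession 36. Above 4 were 12 in S0_54 and 9 in S1_54, 15 in either and 6 in both, and 5 of the 12 were also above 4 in mix54. LOC606323 read 7.64 and 8.13 in S0_54 and 4.60 and 5.28 in S1_54, against 3.59 and 3.60 in Ae54, 3.01 and 3.03 in Joyau and 4.10 and 4.09 in mix54. LOC542888 read 7.91 and 7.17 in S0_54 and 2.76 and 2.97 in S1_54, against 3.04 and 2.88 in mix54. TaAffx.128555.1.S1_at read 7.75 and 7.53 in S0_54 and 2.95 and 2.91 in S1_54, against 3.48 and 3.44 in mix54. In these 3 both S0_54 arrays lay above every array of the parents Ae54 and Joyau, and all 3 were higher still in S0_36.

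They were also the only members called between the generations. In limma S1_54 was lower than S0_54 for 3 members and higher for none, against 5.08% and 4.06% of all tested probe sets. The 3 are 2.78% of the members, below that background, and at an unadjusted p under 0.05 there were 6 lower and 2 higher. LOC606323 fell by 2.94 (SE 0.34, limma adjusted p = 0.00353), LOC542888 by 4.68 (SE 0.62, limma adjusted p = 0.00435) and TaAffx.128555.1.S1_at by 4.71 (SE 0.58, limma adjusted p = 0.00368). All 3 calls held in each of the 11 alternatives. Under array weights, without S0_54 replicate 4 and without S1_54 replicate 7, 1 member was called higher.

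The same 3 differed between the S0 plants of the crosses. LOC606323 was higher in S0_36 than in S0_54 by 3.61 ± 0.34 (SE, limma adjusted p = 8.85e-05). TaAffx.128555.1.S1_at was higher by 3.04 ± 0.58 (SE, limma adjusted p = 0.00898) and LOC542888 by 2.40 ± 0.62 (SE, limma adjusted p = 0.0434). Leaving out S0_36 replicate 3 ended the last 2 calls, with adjusted p of 0.101 and 0.343, as did leaving out S0_54 replicate 4, with 0.0668 and 0.26, or replicate 3, with 0.05 and 0.101, and using no filter, with 0.0641 and 0.197. The LOC542888 call was also lost after median centring (0.0506) and with only the compared groups fitted (0.07), and so held in 5 of 11 alternatives.

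Ta.12673.1.S1_at was above 6 on every array of the synthetics, at 6.34 and 6.63 in S0_36, 6.21 and 6.07 in S0_54 and 8.37 and 6.54 in S1_54, but read 2.89 and 2.99 in Ae54, 2.87 and 2.88 in Joyau and 4.51 and 2.75 in Courtot. All arrays of the synthetics were above all arrays of those 3 groups. Courtot was lower than S0_36 by 2.85 (SE 0.62, limma adjusted p = 0.00894), a call that ended without S0_36 replicate 9 (0.0511) or Courtot replicate 2 (0.0614). TaAffx.64837.1.A1_at was less clear, at 6.65 and 6.64 in S0_36, 5.79 and 6.07 in S0_54, 5.24 and 5.72 in S1_54 and 4.74 and 5.09 in Courtot. Its synthetics lay above both Courtot arrays, but those of S1_54 only narrowly, and not all were above 6.

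Both probe sets of LOC543233 differed between plants of a group instead. Ta.21348.1.S1_s_at read 11.70 and 6.75 in S0_36, 2.73 and 12.03 in S0_54, 9.23 and 11.30 in S1_54 and 3.62 and 7.40 in Courtot. Ta.21348.1.S1_x_at gave 11.95 and 6.70, 3.53 and 12.19, 9.60 and 11.52, and 4.28 and 7.73 in the same order. The S0_54 arrays alone spanned the range from floor to well above Ae36, at 6.43 and 7.46 on the first probe set. No comparison of either passed, with adjusted p of 0.334 or more for the first and 0.368 or more for the second. The third probe set of the stem, Ta.21348.2.S1_at, which is not a member, read 9.46 and 4.41 in S0_36, 2.13 and 9.89 in S0_54, 7.24 and 9.50 in S1_54 and 2.10 and 4.62 in Courtot. Within each of these groups the same array was the higher on all 3 probe sets, but the levels were not shared. The higher Courtot array stood at only 4.62 on Ta.21348.2.S1_at. That probe set also read 3.92 and 4.56 in Ae36 and 4.27 and 4.19 in mix36, below both members on each of those arrays. The accession 36 signal of LOC543233 was thus weaker on it.

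**Figure D5:**
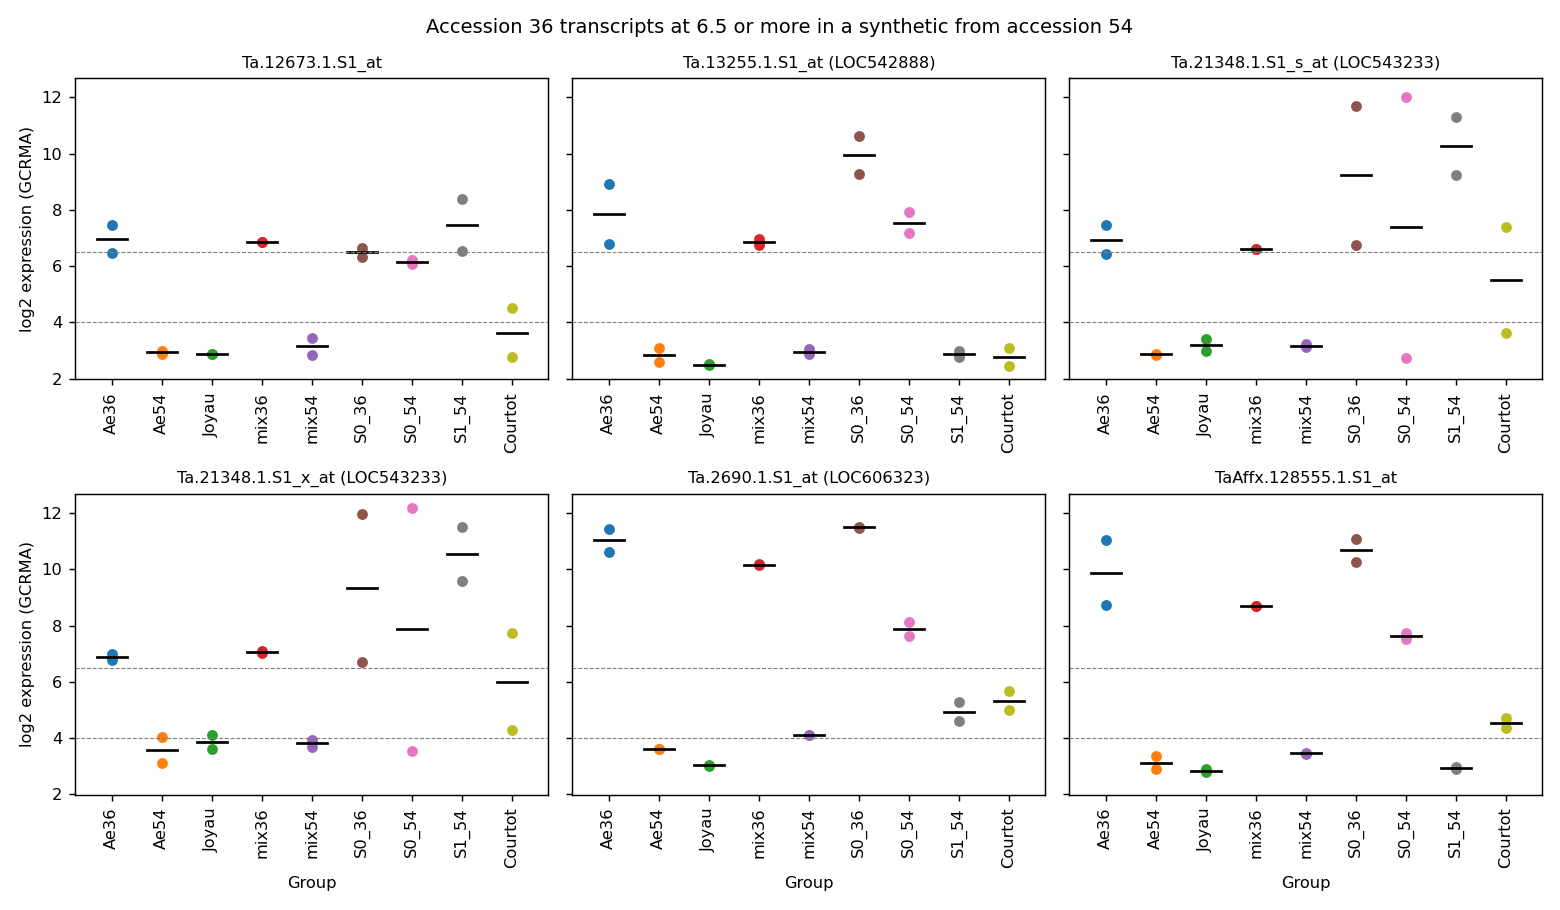
Log2 expression on each array (points) and the group mean (bar) for the 6 probe sets at 6.5 or more in S0_54 or S1_54, with the thresholds of 6.5 and 4 dashed. LOC542888, LOC606323 and TaAffx.128555.1.S1_at are high in S0_54 and lower in S1_54, Ta.12673.1.S1_at is above 6 on all arrays of the synthetics, and both LOC543233 probe sets differ widely between the 2 plants of S0_36, of S0_54 and of Courtot.

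The other members with a symbol followed different patterns. LOC543261 read 8.08 and 7.87 in Ae36, 7.67 and 7.84 in mix36, 5.35 and 5.32 in S0_36 and 6.49 and 6.05 in Courtot, so that S0_36 lay below all of these. It fell from mix36 to S0_36 by 2.42 (SE 0.27, limma adjusted p = 0.00036). LOC543003 (Ta.14149.1.S1_at) read 6.48 and 6.68 in mix36, 4.75 and 3.19 in S0_36 and 3.09 and 3.02 in Courtot, a fall from mix36 to S0_36 by 2.61 (SE 0.49, limma adjusted p = 0.00624). LOC543196 read 2.48 and 2.78 in Courtot, a difference of -5.22 ± 0.50 from S0_36 (SE, limma adjusted p = 3.96e-05). LOC542941 (Ta.13334.1.A1_at) read 7.35 and 3.87 in S0_36, 2.93 and 5.72 in S0_54, 4.96 and 7.13 in S1_54 and 5.64 and 5.62 in Courtot, with no comparison passing. LOC542887 read 7.41 and 7.74 in S0_36, 6.57 and 3.39 in S0_54 and 4.36 and 4.59 in Courtot, and none of its comparisons passed either.

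The array holds 52 other probe sets whose names share a stem with 31 of the members. Of these, 7 reached 6.5 in Joyau, 9 in Ae36 and 2 in Ae54, and 18 stayed at 4 or less in all 3 parents. By the rule, a probe set high in Ae36 but outside the members has to exceed 4 in Ae54 or in Joyau. The 9 high in Ae36 had Ae54 means from 4.21 (Ta.28587.3.S1_x_at) to 6.33 (Ta.7287.2.S1_x_at), all above the limit of 4. Among them was Ta.214.2.A1_x_at, of the stem of LOC543261, with means of 8.28 in Ae36, 5.88 in Ae54 and 6.40 in mix54. On this probe set the stem of LOC543261 was thus not seen in accession 36 alone. Other Ae54 means, such as 4.21 for Ta.28587.3.S1_x_at and 4.46 for Ta.10364.1.S1_at, lay close to the limit. Ta.303.1.S1_at, a member high in both S0_36 and Courtot, has a partner that is high in Joyau. Ta.303.2.S1_at read 9.90 and 9.79 in Joyau but 2.85 and 3.85 in Ae36, and 11.43 to 12.24 on the 8 arrays of the synthetics and Courtot. Both were high in S0_36 and Courtot, and of the 2 only Ta.303.2.S1_at was high in S0_54 and S1_54. A closer partner by name, Ta.303.1.S1_x_at, read 8.58 and 8.06 in Ae36 and 4.42 and 4.44 in Ae54. It gave 5.46 and 5.70 in S0_54 and 4.40 and 4.38 in S1_54, so the low S0_54 level of the member was not shared by this probe set. Ta.5411.1.S1_at, at 7.96 and 7.71 in Ae36, 6.07 and 5.29 in S0_36 and 5.64 and 6.12 in Courtot, has the partner Ta.5411.2.A1_at, at 7.13 and 7.12 in Joyau and 2.74 and 3.49 in Ae36. The partner of Ta.17028.2.A1_at, Ta.17028.1.A1_s_at, read 7.22 and 6.78 in Joyau and 3.69 and 3.97 in Ae36. The other 4 of the 7 were not low in Ae36, with means of 6.53 for Ta.303.2.S1_x_at, 5.64 for Ta.303.3.S1_at, 6.03 for Ta.303.3.S1_x_at and 6.79 for Ta.5411.3.A1_a_at.

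Compared with the mirrored set, the accession 36 transcripts were more numerous. The same rule turned to accession 54 found 42 probe sets, against 108. Of those 42, 11 (26.2%) were at 6.5 or more in mix54 and 13 (31.0%) at 4 or less, where mix36 had 61.1% and 0 of its 108. Their median difference in mix54 from the level computed from equal parts was -1.96, against -0.15 for the 108 in mix36. In the hybrid that inherits them, 10 (23.8%) were at 6.5 or more in S0_54 and 18 (42.9%) at 4 or less. In Courtot 9 (21.4%) were at 6.5 or more and 18 (42.9%) at 4 or less, beside 19.4% and 36.1% of the accession 36 transcripts. None of these differences between the sets was tested.

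Transcripts high in both diploids and low in Joyau numbered 505. In S0_36 257 of them (50.9%) were at 6.5 or more and in Courtot 240 (47.5%), with 13 (2.57%) at 4 or less in Courtot. The 108 found in accession 36 alone were thus at 4 or less in Courtot in 36.1%, a difference that was not tested. The wider set also started higher in Ae36, with a median of 8.20 against 7.63. Its median difference between S0_36 and mix36 was -0.93, with 160 (31.7%) called lower and 14 higher. Falls from the mix were thus common in that set too.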

How the data were processed

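The authors deposited log2 values from GCRMA, a method named in the submitters' processing notes that subtracts a background modelled on probe sequence and normalises arrays. Its version is not given in the sources used here. Of 61290 probe sets, 111 controls were left out. Groups came from the labels. Probe sets at 5 or more on at least 2 arrays (18189, all 108 members among them) were fitted with limma 3.58.1 in R 4.3.3. One model held a mean for each of 9 groups over 16 samples, the mix arrays being averaged. Tests used eBayes with 7 residual and 3.44 prior degrees of freedom, were two-sided, and passed at a Benjamini-Hochberg adjusted p under 0.05 over all tested probe sets. The number of arrays limits the precision. SE is that of the fit, and each group's SD rests on 2 arrays. The labels call the arrays of the plant groups biological replicates.

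The members, lists and tests were chosen with earlier results of these data known. Named members were all those with a gene symbol, the highest and lowest in S0_36, S0_54, S1_54 and Courtot, the largest called differences, the largest gaps between arrays, those at the thresholds, and those sharing a name stem with a probe set high in Joyau. Ta.11519.1.A1_at, TaAffx.64837.1.A1_at, Ta.303.2.S1_at, Ta.21348.2.S1_at and the other partners were added after their values were seen. Symbols come from a probe table that names 1273 probe sets. The fit was tested on simulated data. Alternatives changed the scaling, the filter, array weights, the samples fitted, the thresholds and single arrays.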

Additional observations from a re-analysis of the deposited data

Results flagged for a closer look

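The change from mix to hybrid was compared between the crosses, as S0_36 minus mix36 less S0_54 minus mix54, in the same limma fit. It passed for 14 members, all lower in the cross with accession 36, against 0.874% of all tested probe sets called lower. Ta.18111.1.S1_at had -4.95, Ta.14149.1.S1_at (LOC543003) -3.43, Ta.5350.1.S1_at -3.14, and the stem Ta.11519 -2.70 (_x_at) and -2.53 (_at). TaAffx.111323.1.S1_at had -2.43, Ta.27973.1.A1_at -2.27, TaAffx.110589.4.S1_s_at -2.22, Ta.10871.1.A1_at -1.95 and Ta.7287.1.S1_at -1.89. TaAffx.31551.2.S1_at had -1.75, TaAffx.27751.1.S1_at -1.65, Ta.15907.1.A1_at -1.53 and TaAffx.50764.1.S1_x_at -1.43. Adjusted p ran from 0.000658 to 0.0496. For these 14, S0_54 minus mix54 lay between -0.03 and 0.82. The members were chosen to be low in Ae54 and Joyau and had little room to fall in that cross, so the direction of this difference follows from the choice, and it largely repeats S0_36 minus mix36.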

How the results depend on the processing

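No paired analysis was possible because the groups compared share fewer than 2 replicate numbers. Of 10 counts of calls, those against S0_54 (both S0_36 and Courtot), the falls from mix36 and the falls in Courtot from S0_36 stayed within 1.5 times. Members above mix36 numbered 6 with the mix arrays separate, 4 with array weights, 1 after median centring, 0 with no filter and 0 to 2 without single arrays. Those above S0_36 in Courtot numbered 5 with only these groups fitted and 7 to 12 without single arrays. S1_54 had 1 member higher and 5 lower than S0_54 with array weights, and 0 to 1 higher without single arrays. Quantile normalization moved the median of all tested probe sets in that comparison from -0.221 to -0.099.

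Thresholds of 6 and 4.5 gave 188 members, of which 39.4% were at 6.5 or more and 1.06% at 4 or less in mix36, 1.60% at 6.5 or more in mix54, and 22.3% at 4 or less in S0_36. Thresholds of 7 and 3.5 gave 60, with 0% at 6.5 or more in mix54 and S1_54 and 3.33% at 4 or less in S0_36. With every array past its threshold these were 0%, 0% and 5.19%. Counting a mean of 5 as seen, the shares were 93.5% in mix36, 1.85% in mix54, 65.7% in S0_36, 5.56% in S1_54 and 47.2% in Courtot. Without single arrays, shares at 6.5 or more ran from 0 to 2.16% in mix54, 2.88 to 5.00% in S0_54 and 0.719 to 3.70% in S1_54, and shares at 4 or less from 0 to 4.32% in mix36 and 9.26 to 15.8% in S0_36. Shares on each array of a group alone, among these, were added after the data were seen. Shares were treated as counts and judged by a limit of 1.5 times, chosen after their values were seen: 23 of 162 values lay beyond it, whereas 91 moved by at least the SD of the group's 2 arrays, and only those beyond the limit are given here. Of 87 calls on named members, 65 held in all alternatives and none reversed.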
